A study of Mus musculus with 27 samples.

Results

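The comparison described here set C2C12 cells that expressed the Δpro#3 mutant of NFIA against control cells after forskolin. It holds all 3 samples labelled deltapro#3_day7fsk and all 3 labelled ctrl_day7fsk, 6 of the 27 samples of the series, and covers the 24825 genes of each file. C2C12 is an established line of mouse myoblasts, which fuse into myotubes when they differentiate. NFIA is a DNA-binding transcription factor that directs such cells towards fat, and Δpro#3 lacks a short stretch of its C-terminal proline-rich domain. A retrovirus carried the mutant, or full-length NFIA in other cells, with a 3xFLAG tag, so that the transgene was read from the vector and not from the gene's own promoter. All groups compared here were taken at day 7 of an adipogenic protocol. Per the submitters' treatment notes, confluent cells were first given isobutylmethylxanthine, indomethacin, dexamethasone, insulin, T3 and rosiglitazone, and afterwards insulin, T3 and rosiglitazone. The published methods give this cocktail for another cell type, immortalized stromal vascular cells, and refer to earlier work for C2C12 cells. All cells of the forskolin groups, whether control, mutant or with full-length NFIA, were treated with 10 µM forskolin for 4 h before harvest, and the untreated day 7 groups of control and mutant cells served to ask how far an effect of the mutant depended on forskolin. The labels do not say what the control cells carry, so an effect of infection or of the vector and one of the mutant cannot be told apart in the comparison with control. Nothing in the labels says whether the 3 replicates of a group came from separate infections or cultures, so the p-values measure the spread between these samples, which may be technical.

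Forskolin activates adenylyl cyclase and thereby raises cyclic AMP, which releases the catalytic subunits of protein kinase A and activates CREB-family factors at cAMP response elements. In brown and beige fat, this pathway stands for adrenergic stimulation and induces thermogenic genes such as Ucp1. Myogenesis runs through the bHLH factors Myf5, Myod1, Myog and Myf6, which bind E-boxes and turn on the genes of cell fusion and the sarcomere, while adipogenesis runs through Pparg and the C/EBP family.

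Expression is given in FPKM as deposited, and a difference is the log2 fold change of FPKM + 1 from limma, mutant minus control. That scale understates the change of genes with low values. A gene passed the test at an adjusted p-value under 0.05, and was called when it also changed more than 3-fold. The 6 libraries held 12714515 to 25399502 fragments, recovered from the steps in which the FPKM values occur. Myotube RNA was abundant in both groups: Acta1, the skeletal actin, had 2428 to 3230.3 FPKM in control and 3674 to 4728 FPKM in mutant cells, and Mylpf, a fast myosin light chain, 3368 to 3892 FPKM and 3195 to 3534 FPKM. The leukocyte markers Ptprc and Adgre1, the hormone Lep and the cartilage proteoglycan Acan were listed at 0 in all 6 libraries. Other markers of the same cell types were present. Cd68 had 19.3 to 26.4 FPKM in control and 3.6 to 10.7 FPKM in mutant cells. Runx2 had 6.12 to 6.76 FPKM and 4.76 to 6.63 FPKM, and Fabp4 101 to 129 FPKM and 103 to 386 FPKM. Endothelial and neural markers were low in sum, at 0.205 to 0.251 FPKM and 4.19 to 5.101 FPKM in control and 0.663 to 1.02 FPKM and 13.8 to 19.8 FPKM in mutant cells. The labels name the cells myoblasts at every time point, whereas at day 7 their RNA held the defining genes of myotubes.

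The introduced gene was read first. Nfia (chromosome 4 from 97439425 to 97868605, build NCBIM37, which is mm9) had 0.0944, 0.195 and 0.139 FPKM in control cells and 344, 262 and 277 FPKM in mutant cells, a log2 fold change of 8.005 (SE 0.1, adjusted p = 3.44e-12). All mutant samples were far above all control samples, as their labels say. In full-length NFIA cells, Nfia had 497, 524 and 594 FPKM, above the mutant, with a difference of -0.88 (SE 0.1, adjusted p = 1.85e-05). The deposited values count transcripts of the endogenous gene and of the vector together, so the level of each construct cannot be read from them. The 3 related factors that share the DNA-binding domain of NFIA were lower in mutant than in control cells. Nfic had 49.8, 52.6 and 50.03 FPKM in control cells and 29.1, 31.03 and 38.6 FPKM in mutant cells (log2 fold change -0.62, SE 0.096, adjusted p = 0.000397). Nfib changed by -0.51 (SE 0.077, adjusted p = 0.000344) and Nfix by -0.32 (SE 0.071, adjusted p = 0.00364), and neither gene's samples overlapped between the groups.

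Of 12121 genes with a mean of at least 0.5 FPKM, 105 (0.866%) were called higher and 83 (0.685%) lower in mutant than in control cells. Without the fold threshold, 2367 genes (19.5%) were higher and 3283 (27.1%) lower, and each list is read below against these shares. The median change over all genes tested was -0.041. Scaling the samples by their median ratio moved it to 0.0029 and the numbers passing the test to 2826 higher and 2688 lower. Both counts of called genes rose to more than 1.5 times with a pseudocount of 0.1 (233 and 167) or with a model on fragments (268 and 197). The other 12704 of the 24825 genes stayed below the filter. The plot of all genes shows the called genes as a thin fringe on both sides of a broad diagonal.

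**Figure D1:**
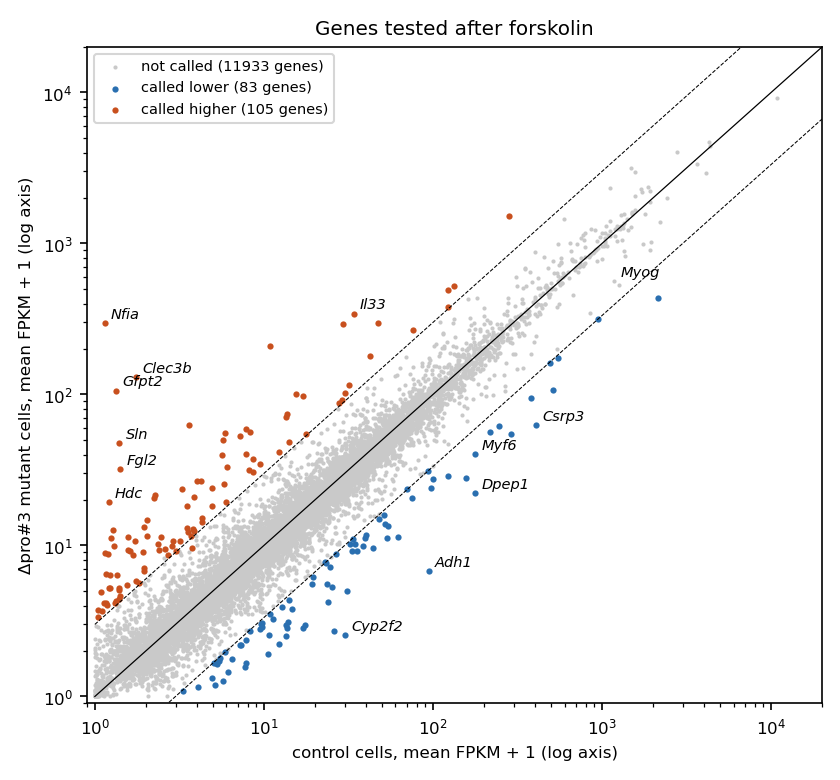
Mean FPKM + 1 of each of the 12121 genes tested in control cells (horizontal, log axis) and Δpro#3 mutant cells (vertical, log axis) after forskolin, 3 samples per group. The solid line marks equal values and the dashed lines 3-fold changes. The 105 genes called higher are orange and the 83 called lower are blue.

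Nfia was left out of the rankings of rises below, and a gene was ranked only if its samples did not overlap between the groups. Of the 6 largest rises so ranked, 5 were in genes below 1 FPKM in every control sample, and the other, Prg4, is described further on. Gfpt2 (chromosome 11 from 49607680 to 49652115), an isoform of the rate-limiting enzyme of the hexosamine pathway, had 0.259, 0.415 and 0.342 FPKM in control cells and 109.9, 104 and 102 FPKM in mutant cells, a log2 fold change of 6.31 (SE 0.057, adjusted p = 2.22e-13). Clec3b, which encodes the secreted plasminogen-binding protein tetranectin, had 0.551, 0.814 and 0.872 FPKM in control cells and 115, 123 and 152 FPKM in mutant cells (6.22, SE 0.11, adjusted p = 1e-10). All control samples of both genes were below 1 FPKM and all mutant samples above 100 FPKM. Sln, sarcolipin, a small peptide that inhibits and uncouples the calcium pump of the sarcoplasmic reticulum, had 0.3501, 0.828 and 0 FPKM in control cells and 64.3, 38.8 and 36.8 FPKM in mutant cells (5.09, SE 0.23, adjusted p = 7.98e-08). Control replicate 3 held no fragment of it, while every mutant sample was above 36 FPKM. Fgl2, a secreted fibrinogen-like protein, had 0.278, 0.457 and 0.501 FPKM in control cells and 40.3, 23.9 and 28.5 FPKM in mutant cells (4.47, SE 0.16, adjusted p = 1.38e-08). Hdc, the enzyme that makes histamine, had 0.171, 0.224 and 0.229 FPKM in control cells and 15.8, 18.2 and 20.8 FPKM in mutant cells (3.99, SE 0.095, adjusted p = 1.24e-09). For both genes the control samples stayed below 1 FPKM and the groups were far apart.

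The other 10 of the 15 largest rises began with Prg4 and C3. Prg4, the lubricant proteoglycan lubricin, had 8.98, 12.4 and 8.38 FPKM in control cells and 257, 169 and 197 FPKM in mutant cells (4.25, SE 0.16, adjusted p = 2.03e-08). C3, the central complement component, had 2.21, 3.77 and 1.79 FPKM in control cells and 123, 33.97 and 27.6 FPKM in mutant cells (3.84, SE 0.44, adjusted p = 5.03e-05). Mutant replicate 1 was highest for both genes, and for C3 it was several times above the other mutant samples, which still exceeded all controls. Il33, an alarmin of the interleukin-1 family, had 30.5, 33.2 and 35.03 FPKM in control cells and 308, 361 and 359 FPKM in mutant cells (3.34, SE 0.10, adjusted p = 5.08e-09). Alpl, tissue-nonspecific alkaline phosphatase, had 0.304, 0.3999 and 0.146 FPKM in control cells and 14.04, 10.3 and 10.7 FPKM in mutant cells (3.296, SE 0.11, adjusted p = 9.16e-09). The groups did not overlap for either gene, which was part of how they were chosen, and the mutant samples were close to each other. Ly6c1 and Ly6c2, surface proteins of the Ly6 cluster, rose by 3.32 and 3.23 (limma adjusted p = 2.43e-09 and 1.13e-08), but these genes are near-identical and unique mapping may have split their fragments unevenly. The remaining 4 of the 15 largest rises were Odf3l2 (3.22), Wfdc21 (3.18), the extracellular chaperone clusterin, Clu (3.17), and the ferritin receptor Scara5 (3.11), with adjusted p-values from 5.08e-09 to 1.73e-06 (limma).

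The 15 largest falls began with Adh1, Cyp2f2, Omd, Dpep1 and Csrp3. Adh1 (chromosome 3 from 137923955 to 137953662), an alcohol dehydrogenase that acts on ethanol and retinol, had 93.1, 85.04 and 103 FPKM in control cells and 10.9, 3.86 and 2.56 FPKM in mutant cells (-3.9995, SE 0.33, adjusted p = 5.29e-06). Cyp2f2, a cytochrome P450 enzyme, had 28.9, 30.2 and 28.4 FPKM in control cells and 2.93, 0.914 and 0.779 FPKM in mutant cells (-3.67, SE 0.23, adjusted p = 7.58e-07). In both, mutant replicate 1 stood above the other mutant samples and far below every control. Dpep1, a dipeptidase of the cell surface, had 157, 212 and 162 FPKM in control cells and 30.1, 18.7 and 14.5 FPKM in mutant cells (-3.06, SE 0.22, adjusted p = 2.2e-06). Omd and Aspn, the leucine-rich proteoglycans osteomodulin and asporin, had log2 fold changes of -3.22 and -2.66 (limma adjusted p = 1.01e-07 and 4.22e-05), with control samples at 17.7 to 29.8 FPKM and 19.2 to 38.4 FPKM and mutant samples at 1.62 to 1.82 FPKM and 1.98 to 5.36 FPKM. Csrp3, Tcap and Nmrk2, which are expressed in muscle, were also among the 15. The others were the cationic amino acid transporter Slc7a2 (-2.58), Crispld2 (-2.57), 4930486L24Rik (-2.51), the natriuretic peptide clearance receptor Npr3 (-2.498), Ms4a4d (-2.48), the scavenging chemokine receptor Ackr4 (-2.48) and soluble epoxide hydrolase, Ephx2 (-2.47), with limma adjusted p-values up to 8.51e-06.

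**Figure D2:**
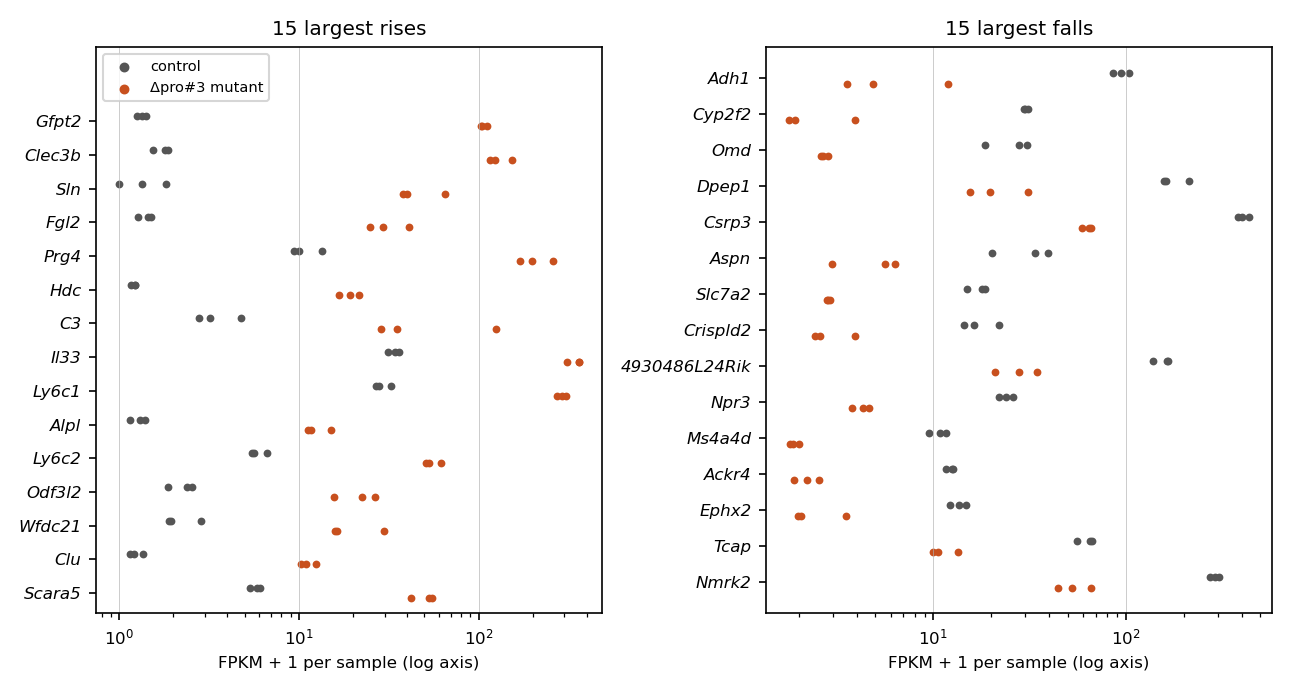
FPKM + 1 of each sample (log axis) for the 15 genes with the largest rises, Nfia left out, and the 15 with the largest falls, control in grey and Δpro#3 mutant in orange, 3 samples each, from the largest change at the top. No gene shown has overlapping groups, which was part of how they were chosen, and mutant replicate 1 lies above the other mutant samples for C3, Adh1 and Cyp2f2 among others.

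Genes of the myogenic regulators and of cell fusion were mostly lower in mutant cells. Of 26 tested out of 30 listed, 3 were higher, 17 were lower and 6 did not pass, with a median change of -0.45 against -0.041 over all genes. In bulk RNA, fewer cells of a type and less RNA per cell cannot be told apart, here and in the lists that follow. Myf6, the bHLH factor of late differentiation, had 166, 203 and 161 FPKM in control cells and 40.8, 37.6 and 39.4 FPKM in mutant cells (-2.13, SE 0.096, adjusted p = 7.29e-08). Myog, the bHLH factor that drives fusion and terminal differentiation, had 1168, 1188 and 1166 FPKM in control cells and 493, 614 and 575 FPKM in mutant cells (-1.07, SE 0.10, adjusted p = 1.57e-05). Myod1, the factor that commits cells to the myogenic line, had 77.4, 79.5 and 77.6 FPKM in control cells and 47.3, 54.7 and 62.9 FPKM in mutant cells (-0.51, SE 0.12, adjusted p = 0.00499). The groups were apart in all 3 genes, but the step was wide for Myf6, smaller for Myog and smallest for Myod1. The fusion proteins Mymk and Mymx fell from 379 to 186 FPKM and 44.5 to 19.1 FPKM on average (-1.03, SE 0.09, adjusted p = 7.86e-06 and -1.19, SE 0.11, adjusted p = 1.21e-05). The actin nucleator Lmod3 (-1.59, limma adjusted p = 8.91e-07) and the RNA-binding protein Rbm38 (-1.103, limma adjusted p = 1.51e-06) were also lower, as was Klf5 (-0.93, SE 0.071, adjusted p = 3.29e-06), a zinc-finger factor. The listed transcript Gm45923 had 2.28, 2.18 and 2.88 FPKM in control cells and 0.261, 0.688 and 0.228 FPKM in mutant cells (-1.32, SE 0.16, adjusted p = 8.23e-05).

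The 3 members of this list that were higher were Pax7, Myf5 and Cdh15. Pax7, the satellite cell factor, had 0.809, 0.718 and 0.809 FPKM in control cells and 3.04, 3.18 and 3.51 FPKM in mutant cells (1.25, SE 0.16, adjusted p = 0.000129). Myf5, the early bHLH factor, had 39.6, 44.5 and 40.5 FPKM in control cells and 53.1, 64.5 and 58.9 FPKM in mutant cells (0.49, SE 0.15, adjusted p = 0.023), and Cdh15, the M-cadherin of myoblasts, 52.2, 50.1 and 50.2 FPKM in control cells and 78.1, 71.2 and 98.6 FPKM in mutant cells (0.68, SE 0.13, adjusted p = 0.00157). In each gene all mutant samples were above all control samples. The rise of Myf5 did not pass the test without control replicate 1, control replicate 3, mutant replicate 2 or mutant replicate 3, where it was 0.46, 0.47, 0.42 and 0.49.

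The sarcomere genes split. Of 58 tested, 8 were higher, 33 were lower and 17 did not pass (median -0.36). The members with the largest falls were Csrp3, Tcap, Tmod4 and Xirp1. Csrp3 (chromosome 7 from 56085768 to 56103400), the Z-disc protein MLP, had 403, 436 and 380.1 FPKM in control cells and 64.6, 58.2 and 63.2 FPKM in mutant cells (-2.69, SE 0.082, adjusted p = 5.08e-09). Tcap, telethonin, which caps titin, had 65.8, 63.99 and 54.6 FPKM in control cells and 8.98, 12.5 and 9.64 FPKM in mutant cells (-2.47, SE 0.11, adjusted p = 6.13e-08). Tmod4, a tropomodulin, fell from 22.5 to 4.56 FPKM and Xirp1 from 38.6 to 10.2 FPKM (-2.07, SE 0.095, adjusted p = 7.98e-08 and -1.83, SE 0.10, adjusted p = 3.36e-07). All 4 fell more than 3-fold and their samples did not overlap, which for Csrp3 and Tcap was part of how they were chosen. Myh7, the slow myosin heavy chain, and the ubiquitin ligase Trim63 fell, with log2 fold changes of -1.59 and -1.44 (limma adjusted p = 9.59e-06 and 3.74e-07). Myl4, the embryonic light chain, had 1436, 1368 and 1301 FPKM in control cells and 815, 896 and 746 FPKM in mutant cells (-0.74, SE 0.10, adjusted p = 0.00016), and Myh8, the perinatal heavy chain, 261, 301 and 252 FPKM in control cells and 207, 142 and 133 FPKM in mutant cells (-0.77, SE 0.15, adjusted p = 0.00183). Against these, other members were higher or did not pass. Des, the intermediate filament of the Z-disc, had 574, 609.5 and 527 FPKM in control cells and 874, 739 and 780.1 FPKM in mutant cells (0.48, SE 0.093, adjusted p = 0.0017). Acta1 had 2613, 3230.3 and 2428 FPKM in control cells and 4728, 3674 and 3702 FPKM in mutant cells (0.55, SE 0.14, adjusted p = 0.00935). Myh4, the fast IIb heavy chain, had 34.2, 37.3 and 30.4 FPKM in control cells and 57.1, 47.5 and 58.4 FPKM in mutant cells (0.66, SE 0.10, adjusted p = 0.000389). The cardiac actin Actc1 (0.43, SE 0.14, adjusted p = 0.0278), Tpm2 (0.36, SE 0.10, adjusted p = 0.0137) and Myh2 (0.80, SE 0.24, adjusted p = 0.0203) were higher too, although Actc1 and Myh2 lost the test without control replicate 1 or control replicate 3, Actc1 also without mutant replicate 2 or mutant replicate 3, and Tpm2 without control replicate 3. Mylpf (-0.11, limma adjusted p = 0.371), Tnni2 (-0.19, adjusted p = 0.104), Myh3 (-0.14, adjusted p = 0.228) and Myh1 (-0.084, adjusted p = 0.601) did not pass. The summed level of the whole sarcomere list was 29150.1 to 33853 FPKM in control and 25125 to 28930 FPKM in mutant cells.

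**Figure D3:**
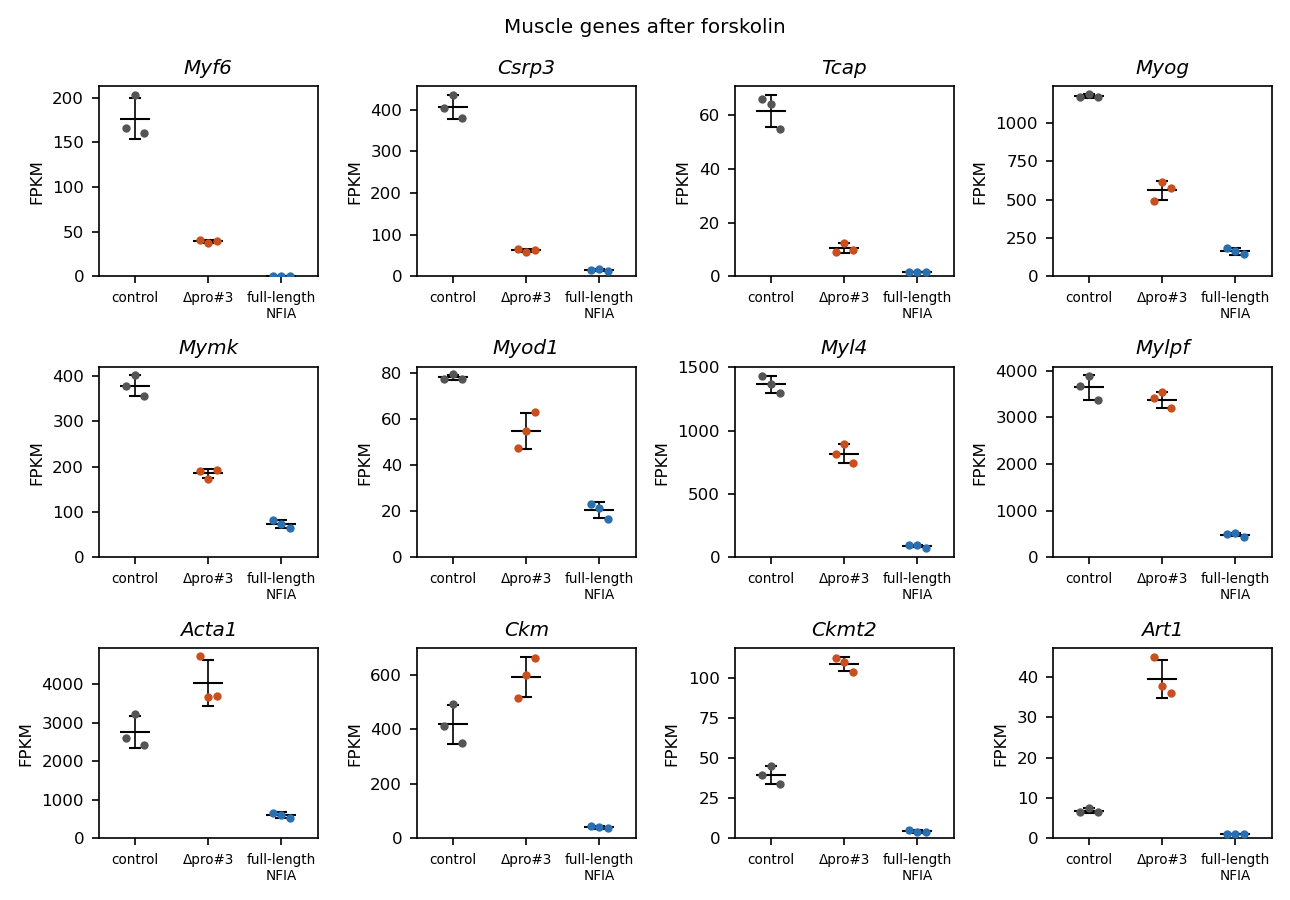
FPKM of 12 muscle genes after forskolin in control (grey), Δpro#3 mutant (orange) and full-length NFIA cells (blue). Points are samples, the bar is the mean and the whiskers 1 SD (n = 3). Myf6, Csrp3, Tcap, Myog, Mymk, Myod1 and Myl4 are lower in mutant than in control cells, Mylpf did not pass the test, and Acta1, Ckm, Ckmt2 and Art1 are higher in mutant cells.

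Of 37 genes of excitation-contraction coupling and the neuromuscular junction, 3 were higher, 24 were lower and 10 did not pass (median -0.40). Kcnn3, a small-conductance calcium-activated potassium channel, had 23.3, 24.99 and 24.1 FPKM in control cells and 4.58, 4.18 and 4.17 FPKM in mutant cells (-2.24, SE 0.10, adjusted p = 7.35e-08). The calcium store protein Casq2 fell from 339.7 to 149 FPKM (-1.18, SE 0.081, adjusted p = 1.44e-06), and the embryonic acetylcholine receptor subunit Chrng (-1.07), the caveolin Cav3 (-1.01) and the sodium channel Scn4a (-0.88) fell with limma adjusted p-values up to 0.000159. Sln, described above, was the one member that rose more than 3-fold.

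More genes of the list for energy metabolism in muscle were higher than lower. The list also holds muscle genes of other functions, such as Art1, its only member called higher. Of 21 tested, 13 were higher, 4 were lower and 4 did not pass (median 0.41). Art1, a surface ADP-ribosyltransferase of muscle, had 6.42, 7.48 and 6.55 FPKM in control cells and 44.98, 37.6 and 36.1 FPKM in mutant cells (2.37, SE 0.087, adjusted p = 1.75e-08). Ckmt2, the sarcomeric mitochondrial creatine kinase, had 39.3, 45.5 and 34.1 FPKM in control cells and 113, 110.3 and 104 FPKM in mutant cells (1.44, SE 0.12, adjusted p = 5.22e-06). Eno3, the muscle enolase, had 404, 435 and 358 FPKM in control cells and 912, 838 and 865 FPKM in mutant cells (1.13, SE 0.093, adjusted p = 5.09e-06). Every mutant sample exceeded every control sample, and Eno3 rose from a high level. Ckm, the cytosolic muscle creatine kinase, rose from 418 to 592 FPKM (0.51, SE 0.13, adjusted p = 0.0106) and Ppp1r27 from 14.6 to 31.2 FPKM (1.01, SE 0.22, adjusted p = 0.00349). Pgam2, the muscle phosphoglycerate mutase, and Slc2a4, the insulin-responsive glucose transporter, were lower (-1.08, SE 0.11, adjusted p = 2.76e-05 and -1.02, SE 0.14, adjusted p = 0.000141), as were the glycogen phosphorylase Pygm (-0.54, adjusted p = 0.000283) and the cytochrome oxidase subunit Cox6a2 (-0.44, adjusted p = 0.000245).

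Mutant and full-length NFIA cells were compared for the same genes. The comparison shares the mutant samples with the one above. Nfia RNA was itself lower in mutant than in full-length NFIA cells (-0.88), so the deletion and a lower level of the factor cannot be told apart. In this comparison, 350 genes (2.89%) were called higher and 401 (3.31%) lower in mutant cells. With a pseudocount of 0.1 these counts were 612 and 555, and with the model on fragments 661 and 577, so that the balance turned. Csrp3 was 15.6, 16.7 and 13.4 FPKM with full-length NFIA, and the mutant lay above by 1.96 (SE 0.082, adjusted p = 6.42e-09). Myf6 was 0.546, 0.321 and 0.579 FPKM, with the mutant above by 4.77 (SE 0.096, adjusted p = 7.12e-11), and Myog was 186, 162 and 143 FPKM, with the mutant above by 1.77 (SE 0.10, adjusted p = 8.72e-08). The samples with the mutant therefore lay between control and full-length NFIA for Myf6, Csrp3 and Myog. At an adjusted p-value under 0.05, where 42.0% of all genes were higher and 24.2% lower in mutant cells, 58 of 58 sarcomere genes and 20 of 26 genes of myogenic regulation and fusion were higher than with full-length NFIA, and 0 sarcomere genes were lower. Among the largest rises, Hdc was 2.78, 2.36 and 2.603 FPKM and Il33 19.8, 24.2 and 18.01 FPKM with full-length NFIA, below the mutant, with log2 differences of 2.42 (SE 0.095, adjusted p = 4.03e-09) and 3.99 (SE 0.10, adjusted p = 2.23e-10). Alpl (128, 128 and 119.9 FPKM) and Clec3b (379, 331 and 319.998 FPKM) were instead above the mutant (mutant minus full-length -3.33 and -1.404, limma adjusted p = 1.05e-09 and 1.02e-06). Adh1 and Cyp2f2, lower in mutant than in control cells, had 125, 108 and 106 FPKM and 113, 104 and 104 FPKM with full-length NFIA, and the differences of the mutant from it were -4.27 (SE 0.33, adjusted p = 8.89e-07) and -5.51 (SE 0.23, adjusted p = 6.6e-09). Omd had 1.44, 1.43 and 1.71 FPKM with full-length NFIA and did not pass the test against the mutant (0.099, SE 0.15, adjusted p = 0.588).

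Most adipogenic transcription factors did not pass the test or changed less than 2-fold. Of 18 tested out of 24 listed, 3 were higher, 6 were lower and 9 did not pass (median -0.12). After median-ratio scaling 7 were higher and 5 lower. Pparg, the master factor of adipogenesis, had 4.64, 4.84 and 4.98 FPKM in control cells and 6.198, 6.93 and 5.71 FPKM in mutant cells (0.32, SE 0.07, adjusted p = 0.00356). Cebpa, its partner, had 11.3, 11.5 and 10.7 FPKM in control cells and 8.99, 7.51 and 8.63 FPKM in mutant cells (-0.38, SE 0.066, adjusted p = 0.000877). With full-length NFIA, Pparg had 35.6, 33.5 and 35.9 FPKM and Cebpa 47.96, 49.2 and 47.8 FPKM, and the mutant minus full-length differences were -2.31 (SE 0.07, adjusted p = 6.29e-10) and -2.398 (SE 0.066, adjusted p = 2.97e-10). Cebpd, an early C/EBP factor, rose from 9.03 to 27.9 FPKM (1.52, SE 0.091, adjusted p = 5.23e-07) and Cebpb by 0.35 (SE 0.089, adjusted p = 0.0083). Gata2 (-0.88), Ebf1 (-0.77) and Klf15 (-0.66) were lower (limma adjusted p up to 0.00068). Zfp423, a preadipocyte factor, had 0.0754 to 0.137 FPKM in control and 0.135 to 0.202 FPKM in mutant cells and stayed below the filter.

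Of 50 adipocyte genes tested, 22 were higher, 7 were lower and 21 did not pass (median 0.23), and 4 were called higher (Agt, Hp, Plin4 and Acp5) and 1 lower (Apoe). The list summed to 1670.3 to 1844 FPKM in control and 2222 to 3041 FPKM in mutant cells, and to 28000.2 to 29579 FPKM with full-length NFIA. Fabp4, the fatty acid binding protein of adipocytes, had 116, 129 and 101 FPKM in control cells and 386, 103 and 137 FPKM in mutant cells (0.62, SE 0.36, adjusted p = 0.191). Adipoq, adiponectin, had 5.54, 5.42 and 5.62 FPKM in control cells and 14.3, 4.29 and 5.56 FPKM in mutant cells (0.31, SE 0.29, adjusted p = 0.415). Mutant replicate 1 was the highest of the 6 samples in both genes and the other mutant samples overlapped the controls. Without mutant replicate 1 the changes were 0.054 for Fabp4 and -0.15 for Adipoq, and without mutant replicate 2 Fabp4 passed the test (0.998, limma adjusted p = 0.0355). Over the adipocyte list, leaving out mutant replicate 1 gave 21 genes higher and 12 lower, in place of 22 and 7. Lpl, lipoprotein lipase, had 163, 147 and 170.5 FPKM in control cells and 452, 413 and 409 FPKM in mutant cells (1.403, SE 0.081, adjusted p = 4.14e-07). Agt, angiotensinogen, had 2.08, 2.66 and 2.096 FPKM in control cells and 27.5, 18.7 and 22.2 FPKM in mutant cells (2.85, SE 0.13, adjusted p = 7.35e-08) and Plin4, a lipid droplet protein, 10.1, 14.2 and 9.39 FPKM in control cells and 44.6, 38.4 and 38.5 FPKM in mutant cells (1.78, SE 0.13, adjusted p = 1.92e-06). In these genes all mutant samples were above all control samples. Hp, haptoglobin, rose from 14.5 ± 8.81 to 99.2 ± 51.1 FPKM (SD, n = 3 each; 2.72, SE 0.39, adjusted p = 0.000228), the phosphatase Acp5 by 1.62 (SE 0.18, adjusted p = 4.16e-05) and the lipase Mgll by 1.51 (SE 0.13, adjusted p = 6.65e-06). Apoe fell from 53.3 ± 9.39 to 12.4 ± 4.68 FPKM (SD, n = 3 each; -2.06, SE 0.21, adjusted p = 1.95e-05). With full-length NFIA, Fabp4 had 10849.5, 10224 and 10773 FPKM and Adipoq 386, 339 and 343 FPKM, and the mutant differed from it by -5.902 (SE 0.36, adjusted p = 1.34e-07) and -5.46 (SE 0.29, adjusted p = 4.38e-08).

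Of 28 thermogenic genes, 16 passed the filter, and of these 3 were higher, 5 were lower and 8 did not pass (median -0.0095). Ucp1, the uncoupling protein of brown fat, was listed at 0 in all control samples and had 0.452, 0.397 and 0.192 FPKM in mutant cells, which rested on 30 fragments in all and stayed below the filter. The exact permutation test of 3 against 3 samples gave p = 0.1 (2-sided), the smallest it can give. With full-length NFIA, Ucp1 had 1.04, 1.22 and 0.9996 FPKM. Ppargc1a, the coactivator of thermogenic and mitochondrial genes, had 2.06, 2.25 and 1.78 FPKM in control cells and 1.52, 0.982 and 1.09 FPKM in mutant cells (-0.47, SE 0.12, adjusted p = 0.00693), and the mutant samples were all below the controls. Cidea, a lipid droplet protein of brown fat, had 0.135 to 0.274 FPKM and 0.0581 to 0.102 FPKM (-0.13, SE 0.087, adjusted p = 0.231), and passed the test with a pseudocount of 0.1 (log2 fold change -0.66, limma adjusted p = 0.0243). Ppara had at most 0.0523 FPKM in these 6 samples. Dio2, which activates thyroid hormone, was higher (0.79, SE 0.088, adjusted p = 4.4e-05), and the T-box factor Tbx1 and the hormone Fgf21 were lower (-1.94, SE 0.11, adjusted p = 3.59e-07 and -1.28, SE 0.17, adjusted p = 0.00016). The respiratory chain differed little, where 19.5% of all genes were higher and 27.1% lower. Of 63 oxidative phosphorylation genes, 7 were higher, 9 were lower and 47 did not pass, and the changes spanned -0.29 to 0.37. After median-ratio scaling, 11 of these were higher and 2 lower, and the sign of the list's median, like that of the thermogenic list, turned.

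**Figure D4:**
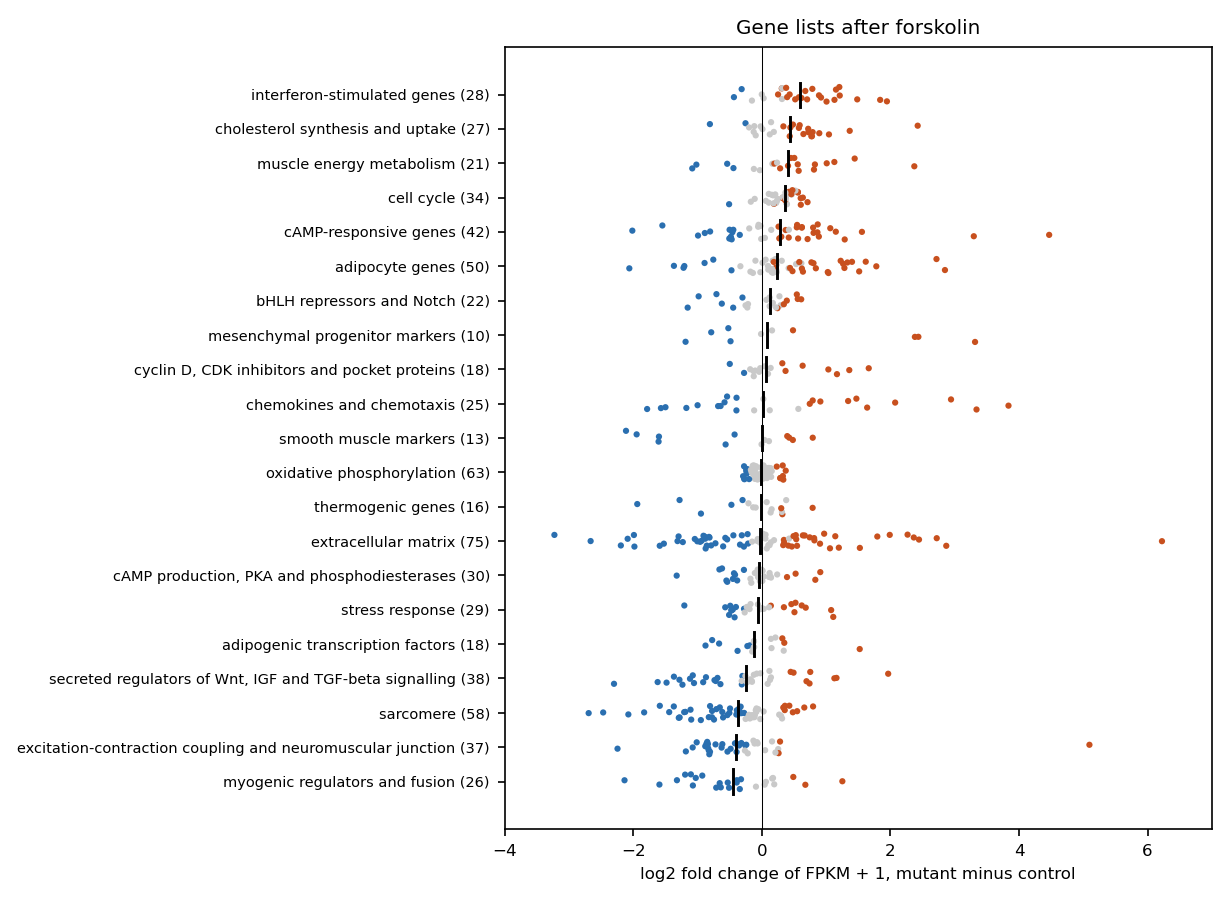
Log2 fold change of FPKM + 1 (mutant minus control, after forskolin) of each tested gene in the 21 lists with 10 or more tested genes, with the number tested in brackets. Orange genes passed the test as higher, blue as lower and grey did not pass, and the black bar is the list's median. The lists of myogenic regulators, excitation-contraction coupling and the sarcomere have the lowest medians (-0.45, -0.40 and -0.36) and the interferon-stimulated genes the highest (0.60). Points are spread vertically only to keep them apart.

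A list of genes taken to respond to cAMP was examined next, since forskolin acts through it. The list was chosen with earlier results of these data known and holds Fgl2 and Alpl, so its counts are not independent of these data. Between mutant and control cells after forskolin, of 42 tested 22 were higher, 12 were lower and 8 did not pass (median 0.29). Beyond Fgl2 and Alpl, the largest changes went both ways. Mat2a, which makes S-adenosylmethionine, had 360.1, 398 and 381 FPKM in control cells and 89.3, 95.5 and 95.1 FPKM in mutant cells (-2.01, SE 0.07, adjusted p = 1.32e-08). Atf3, a stress and cAMP inducible repressor, had 85.5, 90.8 and 81.7 FPKM in control cells and 32.1, 30.4 and 24.3 FPKM in mutant cells (-1.55, SE 0.094, adjusted p = 5.94e-07). Klf4, a zinc-finger factor, had 13.4, 15.2 and 13.6 FPKM in control cells and 38.7, 44.3 and 47.3 FPKM in mutant cells (1.56, SE 0.075, adjusted p = 1.12e-07). The groups did not overlap in any of these genes, with Mat2a and Atf3 lower and Klf4 higher in mutant cells. The immediate early factor Junb rose from 25.1 to 62.97 FPKM (1.29, SE 0.10, adjusted p = 3.52e-06) and Ier3 from 28.5 to 64.7 FPKM (1.15, SE 0.063, adjusted p = 2.83e-07). The nuclear receptors Nr4a1 and Nr4a3 were lower (-0.48, SE 0.10, adjusted p = 0.00322 and -0.99, SE 0.092, adjusted p = 1.19e-05), and the related Nr4a2 was higher (0.37, SE 0.13, adjusted p = 0.0365). Of 30 genes of cAMP production, protein kinase A and phosphodiesterases, 4 were higher, 10 were lower and 16 did not pass, the largest being the cAMP-activated exchange factor Rapgef3 (Epac1), from 2.299 ± 0.0479 to 0.319 ± 0.0533 FPKM (SD, n = 3 each; -1.32, SE 0.083, adjusted p = 7.35e-07). Prkaca, the catalytic subunit of protein kinase A, changed by -0.62 (SE 0.051, adjusted p = 5.15e-06), its regulatory subunit Prkar2a by -0.66 (SE 0.066, adjusted p = 2.01e-05) and the anchoring protein Akap6 by -0.55 (SE 0.092, adjusted p = 0.000694), while the cyclase Adcy8 (0.91, SE 0.16, adjusted p = 0.000913) and the cGMP phosphodiesterase Pde5a (0.83, SE 0.08, adjusted p = 1.49e-05) were higher.

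The effect of the mutant was then compared with and without forskolin in the 18 day 7 samples. The difference of the effects passed the test at an adjusted p-value under 0.05 for 302 of 12245 genes (2.47%) in the positive and for 306 (2.50%) in the negative direction. These counts ranged from 198 to 412 and from 190 to 477 when 1 of the samples was left out, and both were highest without mutant replicate 1 after forskolin. The untreated control libraries stood apart from all forskolin libraries in a group of pseudogenes and other loci. In 10 genes, the 3 untreated control libraries and the 9 day 0 libraries all had more than 2 times the highest value of the other 15 libraries, for instance 36.5 to 87.3 FPKM against 4.37 to 12.5 FPKM for Rpl14-ps1. Of these genes, 9 passed the test for the difference of effects, among them Rpl14-ps1 (log2 difference 3.01), Gm48909 (2.91), Gm15501 (2.85) and Rpl37rt (2.65), and without them 293 genes passed in the positive direction. For these genes, a property of the untreated control libraries and an effect of the mutant or of forskolin cannot be told apart. None of them was called between mutant and control cells after forskolin, where all libraries were at the low level. The untreated control libraries also enter every difference of effects and every forskolin response of control cells given below. Whether the same limit reaches other genes was not tested.

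The largest positive differences outside those 10 genes were in Fgl2, Hdc, Alpl and Adamts4. Without forskolin, Fgl2 had 0.122, 0.378 and 0.385 FPKM in control cells and 2.299, 1.34 and 1.53 FPKM in mutant cells, and with it the values given above, a difference of the mutant effect of 3.405 (SE 0.22, adjusted p = 9.52e-08). Hdc had 0.164, 0.0495 and 0.107 FPKM in control cells and 0.553, 0.627 and 1.13 FPKM in mutant cells without forskolin (difference 3.32, SE 0.16, adjusted p = 2.19e-09), and Alpl 0, 0.0221 and 0.0634 FPKM in control cells and 0.361, 0.406 and 0.294 FPKM in mutant cells (2.9003, SE 0.14, adjusted p = 2.19e-09). In all 3 genes, both control groups and the untreated mutant cells were at or near the bottom of the range and only the mutant cells given forskolin were high among these 4 groups. With full-length NFIA and forskolin, Fgl2 had 66.6, 67.03 and 80.8 FPKM and Alpl, as given above, was also higher than in the mutant (mutant minus full-length -1.21, SE 0.16, adjusted p = 5.16e-05 for Fgl2). Adamts4, an aggrecan-cleaving protease, had 1.92, 1.87 and 1.62 FPKM in control cells and 1.58, 1.78 and 1.86 FPKM in mutant cells without forskolin, where the groups overlapped, and 3.05, 3.02 and 2.99 FPKM in control cells and 24.9, 23.8 and 27.9 FPKM in mutant cells with it (difference 2.75, SE 0.11, adjusted p = 3.65e-10). The response to forskolin within the mutant cells, which does not use the untreated control libraries, was 3.53 (adjusted p = 8.33e-11) for Fgl2, 3.45 (adjusted p = 2.16e-12) for Hdc, 3.22 (adjusted p = 1.42e-12) for Alpl and 3.27 (adjusted p = 9.12e-14) for Adamts4. The difference for Alpl did not pass the test in the model on fragments (1.74, limma-voom adjusted p = 0.248), where its untreated control libraries held almost no fragments. Gfpt2 and Il33, already higher in untreated mutant cells (0.06595, 0.0796 and 0.143 FPKM in control cells and 17.5, 12.9 and 14.6 FPKM in mutant cells for Gfpt2 and 12.6, 14.5 and 11.05 FPKM in control cells and 41.9, 41.5 and 49.6 FPKM in mutant cells for Il33), had differences of 2.45 (SE 0.12, adjusted p = 2.19e-09) and 1.61 (SE 0.21, adjusted p = 0.000227). Adding 1 FPKM shrinks a change between values near 0, which enlarges the difference where control cells also rose. With forskolin, control cells had 0.304, 0.3999 and 0.146 FPKM of Alpl and 0.259, 0.415 and 0.342 FPKM of Gfpt2, above their untreated values.

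In the negative direction, the largest differences were in Igf1, Mir1192, Slc1a3, Orm3, Notum, Cxcl5, Cxcl12 and Plin1. Igf1, the growth factor, had 7.77, 6.99 and 5.92 FPKM in control cells and 16.4, 9.301 and 11.8 FPKM in mutant cells without forskolin and 13.01, 8.32 and 12.02 FPKM in control cells and 4.604, 3.37 and 3.05 FPKM in mutant cells with it, so that the mutant samples were above the controls before and below them after treatment (difference -2.11, SE 0.25, adjusted p = 0.000118). Slc1a3, a glutamate transporter, had 2.65, 2.53 and 2.27 FPKM in control cells and 2.02, 1.71 and 1.87 FPKM in mutant cells without forskolin and 15.1, 10.2 and 13.4 FPKM in control cells and 2.28, 2.34 and 1.74 FPKM in mutant cells with it (difference -1.87, SE 0.15, adjusted p = 1.4e-06). Its response was 1.98 (adjusted p = 1.61e-09) in control cells and 0.12 (adjusted p = 0.421) in mutant cells. Orm3, an acute phase protein, differed by -1.796 (SE 0.28, adjusted p = 0.00103), the Wnt deacylase Notum by -1.65 (SE 0.22, adjusted p = 0.000341), and the chemokines Cxcl5 and Cxcl12 by -1.59 (SE 0.27, adjusted p = 0.00212) and -1.58 (SE 0.33, adjusted p = 0.00963). The differences for Mir1192 (difference -2.08) and for the lipid droplet protein Plin1 (difference -1.55) each lost the test under several of the alternatives.

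**Figure D5:**
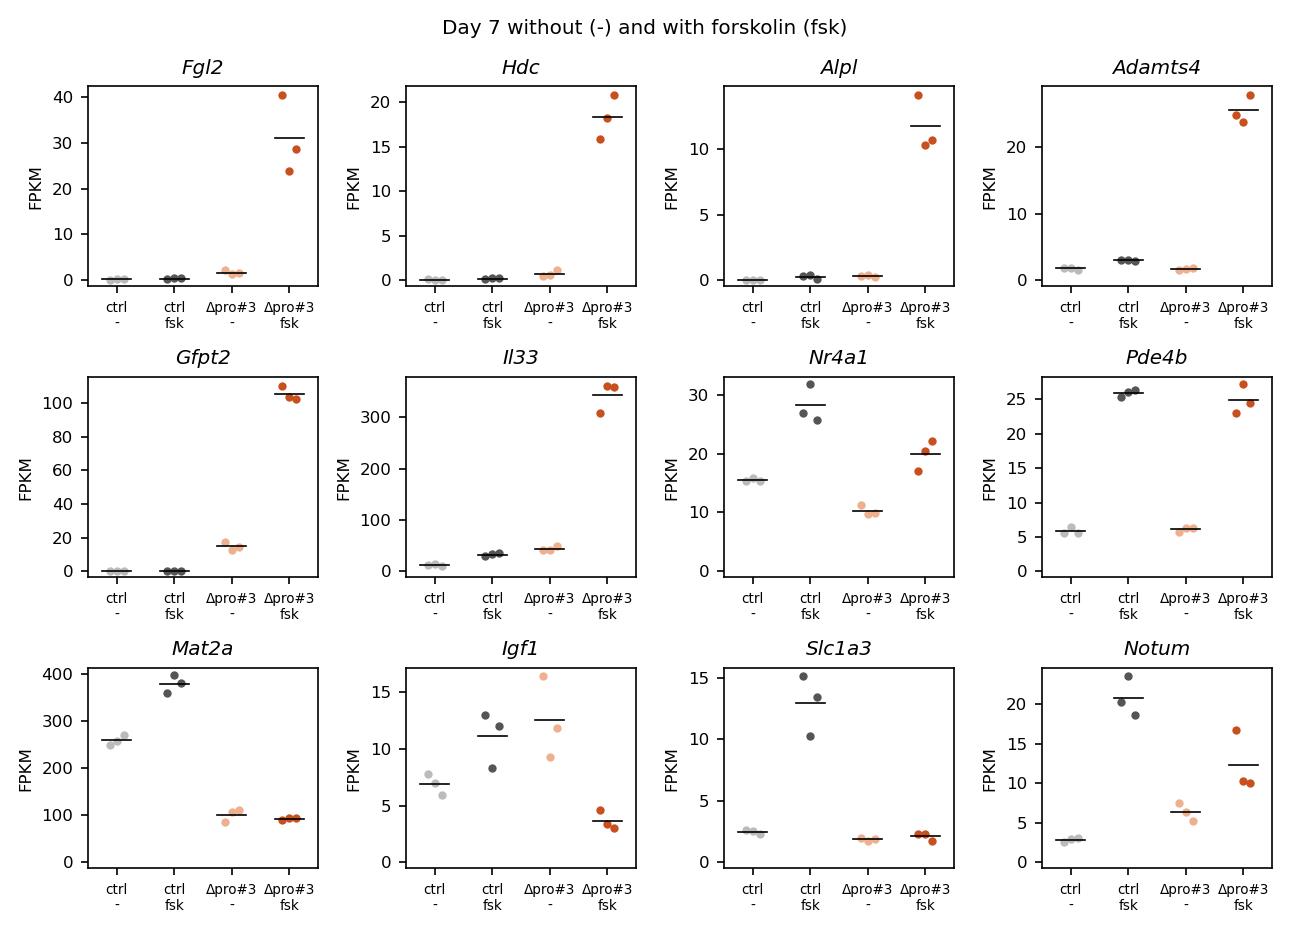
FPKM of 12 genes at day 7 in control and Δpro#3 mutant cells without (-) and with forskolin (fsk). Points are samples and bars are means (n = 3). Among these 4 groups, Fgl2, Hdc, Alpl and Adamts4 are highest in mutant cells with forskolin, Nr4a1 and Pde4b rise with forskolin in both cell types, Mat2a and Slc1a3 rise with forskolin in control cells, and Igf1 is highest in untreated mutant cells and lowest in treated ones.

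The cAMP-responsive list gives the response to forskolin in each cell type. In control cells, where 7.05% of all genes rose and 13.5% fell, 27 of 42 members rose and 2 fell (median 0.49). In mutant cells, where 11.9% of all genes rose and 23.9% fell, 31 rose and 3 fell (median 0.69). The difference of the effects itself passed the test in 11 members in the positive and 1 in the negative direction. Pde4b, a phosphodiesterase that degrades cAMP, responded by 1.97 (adjusted p = 1.8e-11) in control and 1.86 (adjusted p = 1.6e-11) in mutant cells. Nr4a1 responded by 0.81 (adjusted p = 4.7e-06) and 0.88 (adjusted p = 1.08e-06), and Il6 by 2.39 (adjusted p = 1.66e-08) and 2.89 (adjusted p = 7.97e-10). The difference between the cell types was not past the threshold for Pde4b (-0.11, SE 0.10, adjusted p = 0.609), Nr4a1 (0.068, SE 0.12, adjusted p = 0.824) or Il6 (0.50, SE 0.23, adjusted p = 0.242). Crem, the cAMP-inducible repressor, responded by 0.37 (adjusted p = 0.0042) in control and 0.999 (adjusted p = 1.15e-07) in mutant cells, Rgs2, a regulator of G-protein signalling, by 0.98 (adjusted p = 4.87e-06) and 2.11 (adjusted p = 2.55e-10), and Fosl1 by 1.51 (adjusted p = 2.28e-07) and 2.45 (adjusted p = 2.57e-10). Here the differences of 0.63 (SE 0.12, adjusted p = 0.00404), 1.14 (SE 0.15, adjusted p = 0.000311) and 0.95 (SE 0.17, adjusted p = 0.00407) passed. Mat2a was the member in the negative direction, with a response of 0.55 (adjusted p = 0.000203) in control and -0.11 (adjusted p = 0.341) in mutant cells (difference -0.65, SE 0.12, adjusted p = 0.00404). In the lists of myogenic regulators and of the sarcomere the differences that passed were negative, where 2.50% of all genes tested were negative and 2.47% positive. They were in 3 of 27 myogenic regulators (Eya1, Smyd1 and Lmod3) and 3 of 58 sarcomere genes (Ldb3, Lmod2 and Xirp1), and ranged from -1.04 for Xirp1 to -0.34 for Ldb3. Myog, without forskolin at 1254, 1198 and 1374 FPKM in control cells and 349, 584 and 533 FPKM in mutant cells, had a difference of 0.34 (SE 0.24, adjusted p = 0.483). The adipocyte list had 4 positive differences (Lpl, Dgat1, Ghr and Ffar4) and 2 negative ones (Igf1 and Plin1) out of 50.

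Promoter sequences are shown for genes at opposite ends of these results, as a reference for the motifs that the factors named above are known to bind. They run from 250 bases before to 50 after the transcription start, 5′ to 3′ on the strand of the gene, are from RefSeq on GRCm38.p6 and not on the build of the files, and were found for 9337 of the 12121 tested genes. Capitals mark the motifs on either strand. In Nr4a1 they are the CRE core, TGACG, read here on the other strand. In Fgl2 they are the NFI core, which has the letters TTGGC. In Myog and Csrp3 they are E-boxes, written CANNTG. Nr4a1 (chr15:101266596-101266895, plus strand) rose with forskolin in both cell types, Fgl2 (chr5:21372423-21372722, plus strand) rose with forskolin in mutant cells and responded by 0.13 (adjusted p = 0.639) in control cells, and Myog (chr1:134289754-134290053, plus strand) and Csrp3 (chr7:48848002-48848301, minus strand) were lower in mutant cells.
Nr4a1: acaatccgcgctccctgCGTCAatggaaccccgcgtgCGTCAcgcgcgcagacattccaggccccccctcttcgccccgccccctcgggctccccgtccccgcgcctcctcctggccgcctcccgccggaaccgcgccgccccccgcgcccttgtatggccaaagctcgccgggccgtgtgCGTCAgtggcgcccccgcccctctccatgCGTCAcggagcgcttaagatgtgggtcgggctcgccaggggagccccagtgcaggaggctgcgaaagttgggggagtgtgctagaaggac
Fgl2: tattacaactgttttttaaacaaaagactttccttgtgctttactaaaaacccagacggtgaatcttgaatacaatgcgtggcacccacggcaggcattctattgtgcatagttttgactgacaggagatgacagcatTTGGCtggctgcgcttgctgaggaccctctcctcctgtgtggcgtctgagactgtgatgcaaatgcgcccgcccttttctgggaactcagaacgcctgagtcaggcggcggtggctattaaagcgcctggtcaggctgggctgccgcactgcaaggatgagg
Myog: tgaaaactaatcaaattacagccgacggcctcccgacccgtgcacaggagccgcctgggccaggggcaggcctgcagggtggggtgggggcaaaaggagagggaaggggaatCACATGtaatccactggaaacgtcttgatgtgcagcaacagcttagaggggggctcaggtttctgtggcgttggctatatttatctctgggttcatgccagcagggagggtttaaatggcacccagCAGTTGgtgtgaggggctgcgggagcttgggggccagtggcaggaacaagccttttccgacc
Csrp3: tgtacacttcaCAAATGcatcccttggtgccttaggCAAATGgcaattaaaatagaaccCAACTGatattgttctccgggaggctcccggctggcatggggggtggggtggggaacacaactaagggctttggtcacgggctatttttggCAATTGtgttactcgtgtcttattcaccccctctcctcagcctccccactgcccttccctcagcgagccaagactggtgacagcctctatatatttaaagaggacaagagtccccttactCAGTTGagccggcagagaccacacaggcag
Nr4a1 held 4 CRE cores, Fgl2 held 1 NFI core and no CRE core, Myog held 2 E-boxes and Csrp3 held 5. The motifs were not particular to these genes: NFI cores also lay in Nr4a1 (1), Myog (1) and Csrp3 (2), and Fgl2 held 3 E-boxes, none of them marked. Csrp3 has another listed promoter that is not shown. The window of Hdc held no CRE core and no NFI core. Among all promoters of the tested genes, 32.7% held a CRE core, 50.9% an NFI core and 62.3% an E-box. Of the 66 genes called higher with a promoter in the table, 9 held a CRE core, 41 an NFI core and 48 an E-box, and of the 54 called lower, 14, 28 and 38. These motifs are short and common, and a match is a description of the sequence.

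Outside muscle and fat, matrix genes moved strongly in both directions. Of 75 extracellular matrix genes tested, 28 were higher, 33 were lower and 14 did not pass, and 8 and 7 were called. Over all genes tested, 19.5% were higher and 27.1% lower, and 0.866% and 0.685% were called. Eln, elastin, had 0.165, 0.252 and 0.163 FPKM in control cells and 8.67, 7.14 and 7.39 FPKM in mutant cells (2.87, SE 0.10, adjusted p = 1.38e-08). The microfibril protein Mfap5 rose from 2.84 to 19.9 FPKM, the collagen Col5a3 from 2.48 to 17.3 FPKM and the proteoglycan Prelp from 3.96 to 22.8 FPKM, with log2 fold changes of 2.44 (SE 0.12, adjusted p = 1.51e-07), 2.36 (SE 0.14, adjusted p = 4.56e-07) and 2.27 (SE 0.07, adjusted p = 5.08e-09). The latent TGF-β binding protein Ltbp2 fell from 12.6 to 1.97 FPKM and the fibrillar collagen Col11a1 from 9.76 to 1.56 FPKM (-2.19, SE 0.086, adjusted p = 2.58e-08 and -2.09, SE 0.12, adjusted p = 3.89e-07). Among 38 secreted regulators of Wnt, IGF and TGF-β signalling, 8 were higher, 17 were lower and 13 did not pass (median -0.24). Gdf5, a bone morphogenetic protein of joints, fell from 6.77 to 0.557 FPKM (-2.298, SE 0.13, adjusted p = 3.74e-07), Wnt10a from 7.31 to 1.71 FPKM (-1.62, SE 0.10, adjusted p = 7.88e-07) and the activin subunit Inhbb from 22.7 to 7.66 FPKM (-1.48, SE 0.19, adjusted p = 9.92e-05), while the Wnt antagonist Sfrp4 rose from 7.13 to 30.8 FPKM (1.97, SE 0.11, adjusted p = 2.55e-07).

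Interferon-stimulated genes had the highest median of the 21 lists with 10 or more tested genes. Of 28 tested out of 40, 21 were higher, 2 were lower and 5 did not pass (median 0.60). Irf7, the factor that amplifies the interferon response, had 1.81, 1.51 and 0.888 FPKM in control cells and 10.7, 6.52 and 7.62 FPKM in mutant cells (1.95, SE 0.19, adjusted p = 1.79e-05). Ifit3 had 1.71, 1.64 and 1.46 FPKM in control cells and 11.1, 8.12 and 6.35 FPKM in mutant cells (1.84, SE 0.15, adjusted p = 5.26e-06) and Isg15, the ubiquitin-like modifier, 6.44, 7.903 and 7.18 FPKM in control cells and 19.5, 17.05 and 16.98 FPKM in mutant cells (1.21, SE 0.10, adjusted p = 6.65e-06). All mutant samples were above all controls in these 3 genes, at modest levels. The lower ones were Irf1 (-0.43, SE 0.085, adjusted p = 0.00193) and Isg20 (-0.31, SE 0.099, adjusted p = 0.0239). With a minimum mean of 5 FPKM, 9 members were higher. With full-length NFIA, Irf7 had 0.9897, 1.51 and 0.778 FPKM and Isg15 3.97, 2.87 and 3.13 FPKM, below the mutant (2.14, SE 0.19, adjusted p = 2.72e-06 and 2.13, SE 0.10, adjusted p = 1.91e-08). Chemotactic genes were divided: of 25 tested, 10 were higher, 11 were lower and 4 did not pass. Besides C3 and Il33, the calgranulin S100a8 (2.94, SE 0.23, adjusted p = 3.84e-06) and Cxcl14 (2.07, SE 0.24, adjusted p = 5.41e-05) rose, while the monocyte chemokines Ccl7 (-1.78, SE 0.17, adjusted p = 1.26e-05), Ccl8 (-1.57, SE 0.21, adjusted p = 0.000159) and Ccl2 (-1.497, SE 0.16, adjusted p = 2.6e-05) fell.

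Of 27 genes of cholesterol synthesis and uptake, 16 were higher, 2 were lower and 9 did not pass (median 0.44). Pmvk, phosphomevalonate kinase, had 12.2, 13.9 and 12.1 FPKM in control cells and 68.03, 74.9 and 75.2 FPKM in mutant cells (2.42, SE 0.079, adjusted p = 8.2e-09). Its gene (chromosome 3 from 89263040 to 89272935) lies close to Kcnn3 (chromosome 3 from 89324086 to 89471683), which fell. Insig1, the sterol sensor, rose by 1.37 (SE 0.072, adjusted p = 2.22e-07), the synthase Fdps by 0.89 (SE 0.082, adjusted p = 1.11e-05), and the exporter Abcg1 fell (-0.81, SE 0.12, adjusted p = 0.000274). Of 34 cell cycle genes, 12 were higher, 1 (Rrm1, -0.51) was lower and 21 did not pass (median 0.36), with the histone variant Cenpa (0.71, SE 0.16, adjusted p = 0.00404), the helicase subunit Mcm3 (0.64, SE 0.07, adjusted p = 4.05e-05) and Rrm2 of ribonucleotide reductase (0.61, SE 0.087, adjusted p = 0.000243) as the largest. Among 18 cyclin D, CDK inhibitor and pocket protein genes, 7 were higher, 2 were lower and 9 did not pass. Ccnd2 rose from 8.91 to 24.6 FPKM (1.36, SE 0.10, adjusted p = 2.58e-06), Ccnd1 from 6.04 to 13.6 FPKM (1.04, SE 0.13, adjusted p = 0.000118) and E2f2 from 1.72 to 7.7002 FPKM (1.66, SE 0.13, adjusted p = 3.84e-06), and Cdkn1a, the p21 inhibitor that marks cell cycle exit, fell from 558 to 395 FPKM (-0.50, SE 0.066, adjusted p = 0.000134). In the stress list, 9 of 29 were higher and 10 lower, with the metallothioneins Mt1 and Mt2 (1.08, SE 0.15, adjusted p = 0.000168 and 1.11, SE 0.14, adjusted p = 0.000105) higher and the pseudokinase Trib3 (-1.204, SE 0.13, adjusted p = 3.21e-05) lower. The 2 metallothioneins are close copies of each other. In the Notch list, 6 of 22 were higher and 6 lower, where 19.5% of all genes were higher and 27.1% lower. The largest change in that list was in Heyl (-1.15, SE 0.11, adjusted p = 1.84e-05).

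Markers of other cell types are given by list, with summed levels over all genes of the list, also those below the filter. Of 13 smooth muscle markers tested, 4 were higher, 6 were lower and 3 did not pass, and the list summed to 2276 to 2334 FPKM in control and 2469 to 2848 FPKM in mutant cells, with Tagln (-2.11, SE 0.13, adjusted p = 4.91e-07), Myl9 (-1.95, SE 0.25, adjusted p = 0.000129) and Actg2 (-1.599, SE 0.22, adjusted p = 0.000196) lower and Cnn1 (0.79, SE 0.10, adjusted p = 0.000132) and Acta2 (0.43, SE 0.14, adjusted p = 0.0289) higher. Myh11, the myosin heavy chain that defines smooth muscle, had 0.151 to 0.203 FPKM in control and 0.0772 to 0.163 FPKM in mutant cells. Of 10 mesenchymal progenitor markers, 4 were higher, 4 were lower and 2 did not pass. The list summed to 401 to 424 FPKM in control and 1867 to 2060.5 FPKM in mutant cells, of which Ly6a made up most, and the median change was 0.074. Ly6a, the Sca-1 antigen and another member of the Ly6 cluster, had 273, 298 and 273 FPKM in control cells and 1458, 1506 and 1614 FPKM in mutant cells (2.43, SE 0.089, adjusted p = 1.75e-08). Cd34 had 12.8, 10.9 and 13.9 FPKM in control cells and 56.4, 72.7 and 80.5 FPKM in mutant cells (2.38, SE 0.12, adjusted p = 1.37e-07), and the PDGF receptor Pdgfrb 46.1, 41.3 and 40.001 FPKM in control cells and 20.5, 17.7 and 16.3 FPKM in mutant cells (-1.19, SE 0.087, adjusted p = 2.32e-06). The first 2 were higher in every mutant sample and Pdgfrb lower. Of the osteoblast and chondrocyte list, 4 of 14 genes passed the filter. Of these, Bglap, which has a near-identical neighbour, was higher (2.57, SE 0.12, adjusted p = 1.13e-07) and 3 did not pass the test. Its summed level was 10.98 to 11.7 FPKM in control and 17.4 to 20.2 FPKM in mutant cells, and Sp7 did not exceed 0.0287 FPKM. Of 10 neural markers, 3 passed the filter and all 3 were higher (median 0.62), with Tubb3 called (2.19, SE 0.17, adjusted p = 3.84e-06). The list summed to 4.19 to 5.101 FPKM in control and 13.8 to 19.8 FPKM in mutant cells, with Snap25 and Gfap at or near 0. Of 8 endothelial markers, 1 passed the filter, the VEGF receptor Kdr, which was higher (0.49, SE 0.083, adjusted p = 0.000747). That list summed to 0.205 to 0.251 FPKM in control and 0.663 to 1.02 FPKM in mutant cells. In the macrophage and leukocyte list, 3 of 12 passed the filter, with Cd14 higher (1.36, SE 0.082, adjusted p = 5.26e-07) and Cd68 lower (-1.66, SE 0.26, adjusted p = 0.000456). All 12 genes of it summed to 25.3 to 32.5 FPKM in control and 21.5 to 26.02 FPKM in mutant cells. The part of these markers in the changes of the other lists was not tested.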

How the data were processed

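RNA-seq of poly(A) RNA was analysed in 6 C2C12 samples after forskolin, with 3 full-length NFIA samples after forskolin and 9 untreated samples of day 7 as context. The authors aligned the reads with STAR 2.5.3a to mm9, per the submitters' processing notes, and deposited FPKM per gene for 24825 gene symbols, of which 26 had been turned into dates and 2 occurred again. FPKM were tested as log2(FPKM + 1) with limma 3.58.1 (R 4.3.3, trended moderation), which gave every adjusted p-value (Benjamini-Hochberg over all genes tested), in a fit on the 9 forskolin samples, and on the 18 day 7 samples for the difference of the mutant effect with and without forskolin. Genes with a mean under 0.5 FPKM were left out, after which 12121 and 12245 were tested. Called genes passed an adjusted p-value of 0.05 and a 3-fold change. All test scripts were checked on simulated data.

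The files give no counts, but the values of each sample are whole multiples of what 1 fragment is worth, so that fragments were recovered for every gene (100% whole within a tolerance of 0.05). They gave the depth, 12714515 to 25399502 fragments over all genes in these 6 samples, and a limma-voom alternative, and unmapped or multiply mapped reads are not in it. Replicates of a group differed by more than counting noise. The members and the 26 gene lists (846 genes, 1 of them absent from the files) were chosen with earlier results of these data known. Nfia was named first and left out of the ranking. Named next were the 15 largest rises and falls among called genes with a mean of at least 1 FPKM and no overlap between groups, the 8 largest differences with and without forskolin each way, up to 6 members of each list, and genes that the study names. Listed genes named beyond these, such as Lpl and Prkaca, were chosen after their values were seen. Alternatives were a pseudocount of 0.1, no filter, a minimum of 5 FPKM, median-ratio scaling, untrended moderation, fits limited to the groups set against each other, limma-voom, a replicate block, and leaving out each sample. Coordinates are on NCBIM37 (mm9). Figures were drawn with matplotlib 3.10.9 (Python 3.11.15).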

Additional observations from a re-analysis of the deposited data

Results flagged for a closer look

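The effect of the mutant, mutant minus control, differed between cells with and without forskolin by a test of the difference itself (limma, adjusted p under 0.05) for 302 genes in the positive and 306 in the negative direction. The genes with the largest positive differences, on the log2(FPKM + 1) scale, were Fgl2 at 3.40, Hdc at 3.32, Rpl14-ps1 at 3.01, Gm48909 at 2.91, Alpl at 2.90, Gm15501 at 2.85, Adamts4 at 2.75 and Rpl37rt at 2.65. Rpl14-ps1, Gm48909, Gm15501 and Rpl37rt belong to the 10 genes in which the untreated control libraries stood apart, and for them a property of those libraries and an effect of the mutant cannot be told apart. The same libraries enter every other difference given here, and whether the limit reaches those genes was not tested. The largest negative differences were Igf1 at -2.11, Mir1192 at -2.08, Slc1a3 at -1.87, Orm3 at -1.80, Notum at -1.65, Cxcl5 at -1.59, Cxcl12 at -1.58 and Plin1 at -1.55. With groups of 3 samples, no sample was tested for standing apart from its group.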

How the results depend on the processing

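With a pseudocount of 0.1, 233 genes were called higher and 167 lower in mutant than in control cells, and 612 were called higher and 555 lower against full-length NFIA. With limma-voom on fragments these counts were 268, 197, 661 and 577. Leaving out 1 sample at a time gave 105 to 110 genes called higher and 75 to 86 lower against control, 340 to 357 and 391 to 401 against full-length NFIA, and 198 to 412 positive and 190 to 477 negative differences of the mutant effect with and without forskolin. The positive count was 198 without control replicate 1 after forskolin or without untreated control replicate 1, and 199 without mutant replicate 3 after forskolin. The negative count was 190 without control replicate 1 after forskolin, 477, 197 and 203 without mutant replicates 1, 2 and 3 after forskolin, 193 without untreated control replicate 1 and 200 without untreated mutant replicate 1. The cause was not tested. Without the 10 genes that set libraries apart, an alternative chosen after seeing the data, 293 and 306 genes passed for the difference. The change of Adipoq spanned -0.15 (without mutant replicate 1, where it turned) to 0.62 when 1 sample was left out. A replicate block left the counts at 105 and 83 against control and 350 and 401 against full-length NFIA. The numbers do not pair the samples: same-numbered samples of the groups correlated at -0.036, -0.16 and 0.0037 in their deviations from the group means. Among the values of single genes under all alternatives, 52 no longer passed the test and 3 newly passed it. Of the lists' counts of genes that rose or fell, 41 moved by over 1.5 times or from 0 and 687 did not, and of the lists' medians, 56 moved by more than the SD between mutant samples and 307 did not. Median-ratio scaling turned the sign of the median of 5 of 21 lists, which besides the thermogenic and respiratory lists were those of cAMP production, the extracellular matrix and smooth muscle. Transcripts near 1 FPKM or less rest on few fragments.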
